A study of Homo sapiens with 2 samples.

Results

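Mitochondrial RNA was examined among the small RNAs recovered with Argonaute from human cells. The series gives a genome-wide list of read stacks, each of them a run of overlapping reads on 1 strand with its position, its number of reads and the genes it overlaps in build hg19. All stacks placed on the mitochondrial chromosome, chrM, were taken, and they number 56 of 502547. The genes they overlap are given by the list as lying in sense or in antisense, and the 37 mitochondrial genes comprise 13 coding, 2 rRNA and 22 tRNA genes. Every one of the 37 genes was found in sense in at least 1 stack. Stacks that cover most of the chromosome make that likely, so it is no test of the choice.

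The cells were HEK293 T-Rex, a derivative of a human embryonic kidney line that carries the tetracycline repressor, and no treatment, time or genotype other than the tagged protein is given. One library came from cells expressing FLAG:AGO2 and another from cells expressing FLAG:AGO3, which are Argonaute proteins with a FLAG tag for capture on beads, so there was 1 library per group. The AGO2 library held 6674064 reads and the AGO3 library 4667236. The stack list pools its libraries and names none of them, and its 68649476 reads are 6.05 times the 11341300 reads of both libraries. The stacks therefore give no comparison of AGO2 with AGO3, no replicate error and no test, and the 95% intervals below are exact (Clopper-Pearson) and cover counting error only. A library without the tag or of total RNA was not analysed here, so whether these RNAs were held by Argonaute was not tested.

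The mitochondrial genome is a small circular molecule that is transcribed from both strands into long RNAs covering nearly the whole circle. The tRNA genes lie between the rRNA and coding genes, and their excision by RNase P and ELAC2 frees the RNAs on either side, a scheme known as tRNA punctuation. The coding genes all encode subunits of the respiratory chain or of ATP synthase, and the gene-free control region holds the promoters. In the strand naming of the list, 28 genes were read in sense from the plus strand (14 tRNA, 12 coding and both rRNA genes) and 9 from the minus strand, namely MT-ND6 and the 8 tRNA genes MT-TQ, MT-TA, MT-TN, MT-TC, MT-TY, MT-TS1, MT-TE and MT-TP. Sequence from the mitochondrial chromosome is not printed, as no mitochondrial sequence was used here.

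The sequence that can be shown is that of mir-4485, which was chosen after its values were seen because its gene lies in a nuclear copy of mitochondrial sequence and the precursor tables count it in each library. That copy is MTRNR2L8, derived from the mitochondrial large rRNA gene MT-RNR2, and the hairpin lies within it. The hairpin comes from the minus strand of chromosome 11 and has 57 bases, and the mature miRNA of 20 bases begins at base 31 of it, at chr11:10508277-10508296 in RefSeq's GRCh38.p14. In the hairpin the capitals mark the mature miRNA, and in the mature miRNA they mark the seed, bases 2 to 8, with which an Argonaute-bound miRNA finds its targets.
mir-4485 hairpin: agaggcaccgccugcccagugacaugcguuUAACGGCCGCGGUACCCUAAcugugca
hsa-miR-4485-3p: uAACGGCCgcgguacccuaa

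For mir-4485 there were 589 counts in the AGO2 library, or 169 CPM of its precursor counts (interval 156 to 183), and 302 counts in the AGO3 library, or 98.8 CPM (88.0 to 111). On the log2 scale AGO3 stood at −0.77 relative to AGO2 (−0.98 to −0.57), which is less than a 2-fold difference. For comparison, 411 precursors reached 100 counts when both libraries were summed. Of these 24.6% differed 2-fold or more in either direction, the median log2 ratio was 0.08 and 59 precursors were lower than mir-4485. Scaled to all reads of each library instead of to precursor counts, its log2 ratio was −0.45. Both libraries together held 891 counts, yet no stack of the pooled list carried its name, and MTRNR2L8 had 1 antisense read and no sense stack. The list holds 6.05 times the reads of both libraries. The stacks thus show no reads at this hairpin, and which locus the counted reads came from was not tested.

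The 56 mitochondrial stacks held 735079 reads, 1.07% (1.068 to 1.073) of all stack reads and 4.67% (4.66 to 4.68) of the 15736824 reads outside miRNA precursors. These reads were concentrated in few stacks. The stack with the most reads held 46.2% of them (46.1 to 46.3), the top 2 held 61.2%, the top 5 held 84.0% and the top 10 held 98.2%. There were 18 stacks of at least 100 reads and 14 of at least 1000, while 38 stacks had fewer than 100 reads and together held 453. Both strands were well represented, with 434546 reads in 14 plus-strand stacks, a share of 59.1% (59.0 to 59.2), and 300533 reads in 42 minus-strand stacks. That order rested on the largest stack, since the plus strand had 24.1% of the reads without it.

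Because a stack can run over many genes, its reads cannot be divided between them. Stacks with a tRNA gene in sense held 646924 reads, or 88.0% (87.9 to 88.1), in 8 stacks, but 4 of the 8 also carry rRNA or coding genes in sense, and the narrowest of the 8 has 692 bases. When the reads of a stack were split evenly over all genes it carries in either direction, the share of tRNA genes in sense was 30.0%, and among stacks that carry exactly 1 gene it was 0. Both rRNA genes were in sense only in the largest stack, which also carries tRNA genes and was counted with them. Stacks whose only sense genes are coding held 49384 reads (6.72%) in 3 stacks. Of these reads, 47954 were in the minus-strand stack at chrM:9482-14211, which carries MT-ND6 in sense and 10 genes in antisense over 4730 bases. Stacks with genes in antisense only held 7082 reads (0.963%) in 33 stacks, and stacks without a gene held 31689 reads (4.31%) in 12 stacks. The antisense share was 95.7% when every stack with any gene in antisense was counted.

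On the plus strand the largest stack lay at chrM:487-9374. It began in the gene-free stretch before MT-TF and ended within MT-CO3. It was 8888 bases wide and held 339406 reads, or 3819 reads per 100 bases, and its width and entropy score were the largest of all 502547 stacks, although it was 39th in reads. It carries 17 genes in sense, among them both rRNA genes, the complex I genes MT-ND1 and MT-ND2, the complex IV genes MT-CO1, MT-CO2 and MT-CO3 and the ATP synthase genes MT-ATP8 and MT-ATP6. The same stack lies antisense to 6 tRNA genes of the minus strand.

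The next plus-strand stack by reads, at chrM:9480-14212, held 78270 reads over 4733 bases, or 1654 per 100 bases. It carries 10 genes in sense from the end of MT-CO3 to MT-ND5, including MT-ND3, MT-ND4L and MT-ND4, also subunits of complex I, and the tRNAs MT-TG, MT-TR, MT-TH, MT-TS2 and MT-TL2. Between both large stacks lay a small one within MT-CO3 at chrM:9381-9476, with 301 reads over 96 bases. It is the narrowest mitochondrial stack of at least 100 reads.

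Further along the plus strand the reads were fewer. The stack at chrM:14907-16181, with MT-CYB, the gene of the complex III subunit cytochrome b, and MT-TT, the threonine tRNA, held 13965 reads, or 1095 per 100 bases. The stack over the start of MT-CYB at chrM:14587-14905 had 1129 reads, or 354 per 100 bases. The only plus-strand stack with genes in antisense alone, at chrM:14214-14585 opposite MT-ND6, had 1062 reads, or 286 per 100 bases. Plus-strand density thus ranged from 286 to 3819 reads per 100 bases over the 6 stacks that overlap genes.

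On the minus strand the stack with the most reads was that of MT-TQ, the glutamine tRNA. At chrM:4209-5088 it held 110675 reads, 15.1% of the mitochondrial reads (15.0 to 15.1), over 880 bases. Its density of 12577 reads per 100 bases was the highest of the 56 stacks. MT-TQ is its only sense gene, and it lies antisense to MT-ND1, MT-ND2 and the tRNAs MT-TI and MT-TM. Its coverage was also the least even of all 502547 stacks, which is described with the other shapes below.

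The other minus-strand tRNA stacks were less dense. The cluster of MT-TA, MT-TN, MT-TC and MT-TY, the alanine, asparagine, cysteine and tyrosine tRNAs, lay in a stack at chrM:5456-6414 with 41089 reads, or 4285 per 100 bases. The stack of MT-TP, the proline tRNA next to the control region, at chrM:14910-16183, had 34019 reads, or 2670 per 100 bases. The stack of MT-TS1, a serine tRNA, at chrM:6416-9376, had 21754 reads, or 735 per 100 bases, and runs antisense to 7 genes from MT-CO1 to MT-CO3. The stack of MT-TE, the glutamate tRNA, together with the adjoining part of MT-ND6, at chrM:14214-14905, had 7746 reads, or 1119 per 100 bases.

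MT-ND6 is the only coding gene read from the minus strand. Its other sense stack, at chrM:9482-14211, held 47954 reads, or 1014 per 100 bases, over 4730 bases, and carries 10 genes in antisense. This stack mirrors the plus-strand stack at chrM:9480-14212, and the starts of both differ by 2 bases and the ends by 1. Small minus-strand stacks lay antisense to MT-CO3 at chrM:9378-9477 with 495 reads, to MT-ND1 at chrM:4079-4206 with 146 reads and to MT-ND2 at chrM:5097-5200 with 40 reads.

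The minus strand opposite the rRNA genes was sparsely covered. From base 790 to base 3179 there were 27 stacks antisense to MT-RNR1 or MT-RNR2 alone, with 185 reads in all, 1 to 20 per stack with a median of 5. They covered 43.2% of that stretch at 7.74 reads per 100 bases. The 6 stacks opposite MT-RNR1, the small rRNA, held 27 reads, and the 21 stacks opposite MT-RNR2 alone held 158. Immediately beyond, at chrM:3200-4075, a single stack antisense to the end of MT-RNR2, to MT-TL1 and to MT-ND1 held 5153 reads, or 588 per 100 bases, a density 76.0 times that of the stretch before it (65.6 to 88.5). MT-TL1 is a leucine tRNA gene that directly follows MT-RNR2 on the map. From there to base 16183 the minus strand had 10 stacks and 269071 reads, which covered 97.8% of the stretch.

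**Figure D1:**
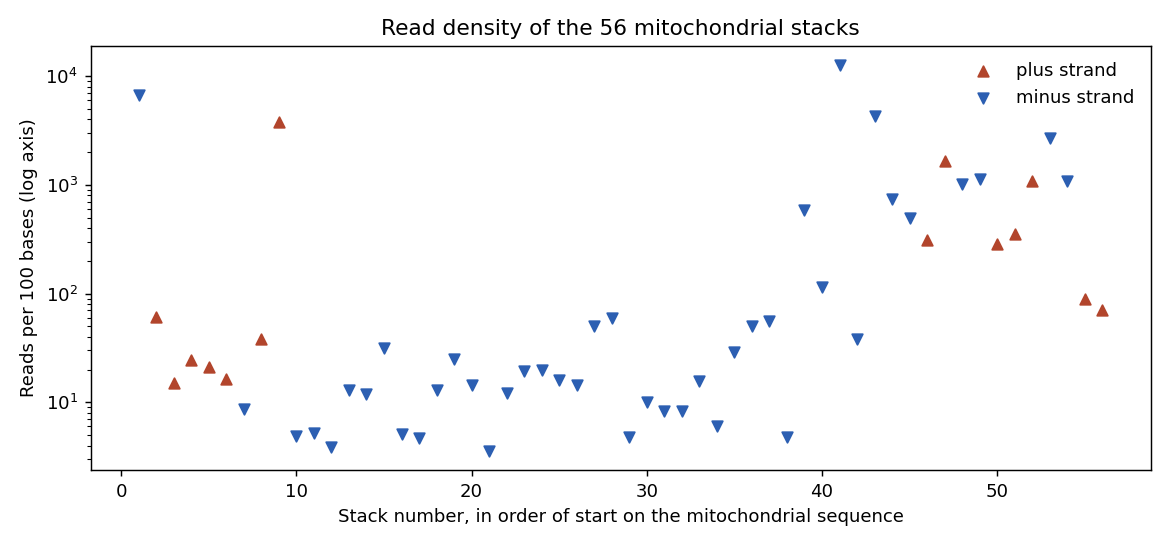
Reads per 100 bases (log axis) of each of the 56 mitochondrial stacks, numbered in order of their start, with plus-strand stacks as upward and minus-strand stacks as downward triangles; each point is 1 stack of the pooled list, without replicates. The run of low minus-strand points in the left and middle holds the 27 stacks opposite the rRNA genes alone, with 185 reads, and the highest point is the MT-TQ stack at 12577.

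In the stacks that overlap no gene, the control region was read mostly from the minus strand. The 12 stacks that overlap no gene had 31276 minus-strand and 413 plus-strand reads. Both counts leave out stacks that also overlap a gene. On the plus strand this omits the largest stack, which covers gene-free bases from 487 on. Also omitted are the stacks next to the other end of the region. These are chrM:14907-16181 with 13965 plus-strand reads and chrM:14910-16183 with 34019 minus-strand reads. Any reads of these stacks in the control region cannot be separated from those over the genes. At the start of the numbered sequence the minus-strand stack at chrM:1-410 had 27203 reads, or 6635 per 100 bases, the density next to that of the MT-TQ stack. The plus-strand stacks over the same stretch had few reads, with 53 at chrM:1-87 and 9 to 26 in the 4 stacks between bases 89 and 448. At the other end of the sequence, the minus-strand stack at chrM:16195-16571 had 4069 reads, and the plus strand had 190 reads at chrM:16195-16409 and 98 at chrM:16421-16559. The promoter of the minus-strand transcript and the primer for replication are placed in this region by textbook knowledge, and these stacks give no start of transcription.

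The plus strand was covered over 16485 of 16571 bases (99.5%) and the minus strand over 14607 (88.2%), and 14545 bases (87.8%) were covered on both. Of the bases covered on either strand, 87.9% were covered on both for chrM, against 0.166% to 2.02% with a median of 1.38% on the 24 nuclear chromosomes. The share was not adjusted for depth and is given as a description. Between its stacks the plus strand had 13 gaps of 1 to 13 bases, and the minus strand had 41 gaps of 1 to 345 bases. Bases uncovered on both strands at once lay at 7 places of 1 to 11 bases: 449 to 450, 481 to 486, 9377, 9478 to 9479, 14213, 14906 and 16184 to 16194. What these bases have in common was not tested. They divide the sequence into 8 blocks in which reads of both strands can be set side by side.

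In 3 of the 8 blocks the plus strand had more reads. In the block from MT-TF to MT-CO3 (bases 487 to 9376) the plus strand had 65.5% of the reads (65.3 to 65.6), from 339406 against 179045. In the block from MT-CO3 to MT-ND6 (9480 to 14212) it had 62.0% (61.7 to 62.3), from 78270 against 47954. The third, a block of 30 bases without a gene from 451 to 480, had 11 against 2 reads. The order turned in the small block within MT-CO3 (9378 to 9477), where the plus strand had 37.8% (34.4 to 41.3), and in the block from MT-ND6 to MT-CYB (14214 to 14905), where it had 22.1% (21.2 to 22.9). The block from MT-CYB to MT-TP (14907 to 16183) had 29.1% on the plus strand (28.7 to 29.5). The minus strand was strongest in the blocks of the control region, with 239 minus-strand reads per plus-strand read at 1 to 448 and 14.1 at 16195 to 16571.

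**Figure D2:**
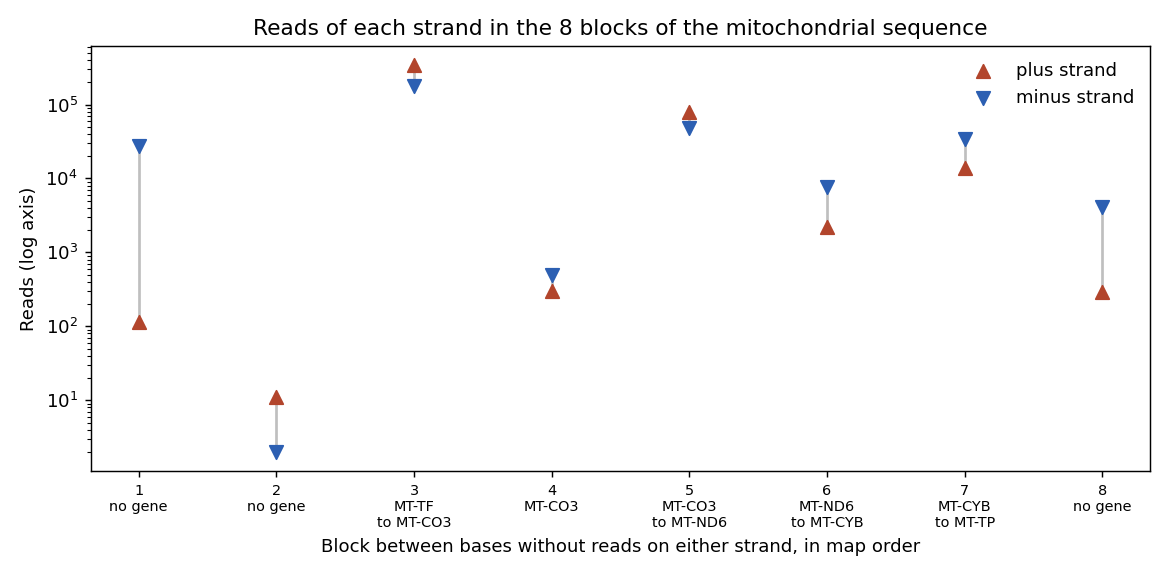
Reads of the plus strand (upward triangles) and of the minus strand (downward triangles) in the 8 blocks between bases without reads on either strand, in map order on a log axis, with the first and last gene of each block under it; values are single pooled counts without replicates. The plus strand is higher in blocks 2, 3 and 5, and the gap is widest in block 1, with 114 plus-strand and 27203 minus-strand reads.

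By gene group, the order of levels follows the stacks and not the genes, since 31 of the 37 genes share each of their sense stacks with another sense gene. The 6 genes with a sense stack that carries no other sense gene were MT-TQ, MT-TS1, MT-TP, MT-CO3, MT-ND6 and MT-CYB. Of these stacks, all but that of MT-CO3 also carry genes in antisense, so their reads cannot be given to the sense gene alone. Of the 7 complex I genes, MT-ND1 and MT-ND2 were in the stack of 339406 reads, MT-ND3, MT-ND4L, MT-ND4 and MT-ND5 in that of 78270, and MT-ND6 had 55700 reads over 2 stacks. The complex III gene MT-CYB had 15094 reads over 2 stacks. Of the 3 complex IV genes, MT-CO1 and MT-CO2 were in the largest stack alone, and MT-CO3 had 417977 reads over 3 stacks that include it. Both complex V genes, MT-ATP6 and MT-ATP8, were in the largest stack alone.

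The 14 plus-strand tRNA genes fell into 3 stacks. MT-TF, MT-TV, MT-TL1, MT-TI, MT-TM, MT-TW, MT-TD and MT-TK were in the largest stack, the 5 named above in that of 78270 reads, and MT-TT in that of 13965. In antisense, 36 of the 37 genes were found, the exception being MT-TV, the valine tRNA between both rRNA genes. Its count of 0 allows up to 3 reads, or 0.000408% of the mitochondrial reads. MT-TF, the phenylalanine tRNA at the head of the plus-strand genes, had 1 antisense read, MT-RNR1 had 27 in 6 stacks and MT-RNR2 had 5311 in 22 stacks, of which 5153 lie in the stack that reaches into MT-ND1. In all 11 stacks with 2 or more genes, the genes formed an unbroken run of RefSeq's map order. Any stretch without breaks must give such a run, so this only checks the annotation.

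Mitochondrial stacks were far wider than most others in the list. They made up 8 of the 10 widest stacks and 8 of the 10 with the highest entropy score. The widest stack elsewhere, of nuclear rRNA, had 2889 bases and 420636 reads. Over all sizes the median width was 56 bases for the mitochondrial stacks and 22 for all stacks. Stacks of at least 1000 reads were also set side by side, to leave out the many stacks of few reads. The 14 mitochondrial stacks of that depth were 319 to 8888 bases wide (median 920), against medians of 60 for 321 miRNA precursor stacks and 134 for 179 nuclear tRNA stacks. Of the 801 such stacks outside chrM, 2 were at least as wide as the narrowest mitochondrial one.

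The list scores each stack by an entropy, of which the positional part measures in bits how far the coverage departs from an even spread over the stack, with 0 for even coverage. The positional part cannot exceed log2 of the width, so wide stacks can reach higher values. Dividing the width by 2 raised to that number gives the width over which even coverage would be equally concentrated. The MT-TQ stack had 3.98 bits, the highest of all stacks, so that its 880 bases were as concentrated as an even stack of 55.96 bases. The MT-TA to MT-TY cluster followed among the mitochondrial stacks with 2.51 bits (169 of 959 bases), then the largest plus-strand stack with 2.41 (1675 of 8888), the MT-TE stack with 2.23 (148 of 692) and the stack antisense to MT-TL1 with 2.14 (199 of 876). Of these 5 stacks, 3 carry tRNA genes in sense on the minus strand. The list does not give where within a stack the coverage was concentrated.

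The most even coverage was found in narrow stacks without a tRNA gene in sense. The 5 most even stacks of at least 100 reads were 96 to 372 bases wide. The narrowest stack with a tRNA gene in sense has 692 bases, so width and gene content cannot be told apart here. Among the 18 stacks of at least 100 reads the lowest positional entropies were those of chrM:4079-4206 antisense to MT-ND1 with 0.287 bits, chrM:14214-14585 antisense to MT-ND6 with 0.295, the gene-free chrM:16195-16409 with 0.538, chrM:14587-14905 over the start of MT-CYB with 0.540, and chrM:9381-9476 within MT-CO3 with 0.726. The minus-strand control-region stack at chrM:1-410 had 0.888. The full score adds a sequence part, so its order differed. It was 29.8 for the largest plus-strand stack, 15.7 and 13.0 for the paired stacks over MT-ND3 to MT-ND5, 8.40 for the MT-TS1 stack and 5.33 for the MT-TQ stack. The median positional entropy at 1000 reads or more was 1.84 bits for mitochondrial stacks, 1.46 for nuclear tRNA and 0.970 for miRNA precursor stacks. Their median widths were 920, 134 and 60 bases, and the entropies were not adjusted for width. Of the 14 mitochondrial stacks, 9 were above the upper quartile of positional entropy of all 815.

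**Figure D3:**
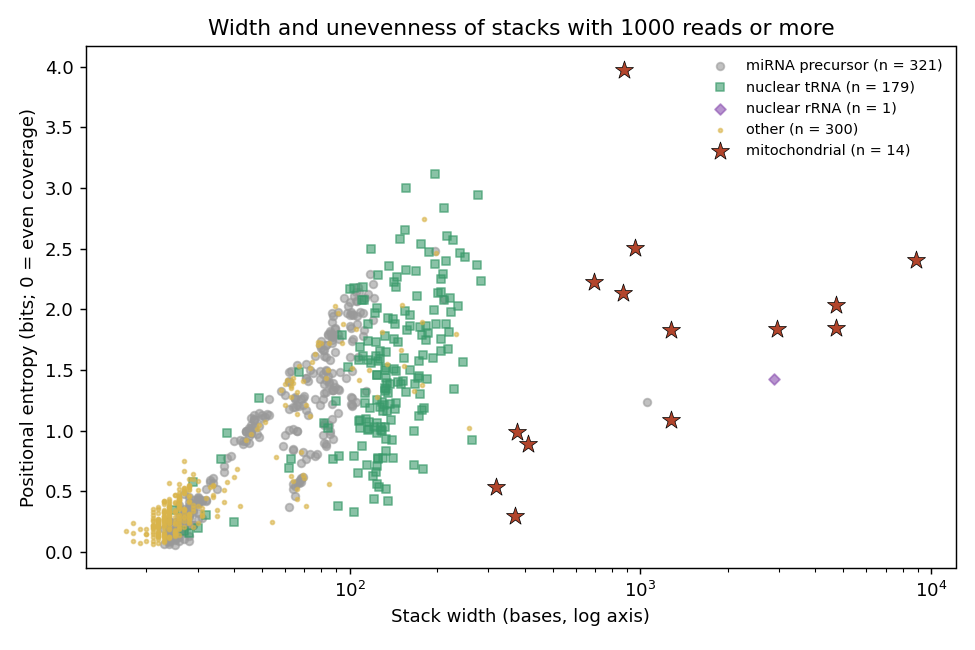
Positional entropy in bits (0 for even coverage) against stack width in bases (log axis) for the 815 stacks of at least 1000 reads, by annotation; stars are the 14 mitochondrial stacks and each point is 1 stack. The mitochondrial stacks lie to the right, at 319 to 8888 bases, and the highest star is the MT-TQ stack with 3.98 bits.

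The list also counts edits in each stack, and edits per read is that count over the reads. The sources used here do not define the field further, a read can have more than 1 edit, and no interval is given. On chrM the plus-strand reads had 0.113 edits per read and the minus-strand reads 0.0773. The plus strand was higher in 8 of 8 blocks. In the block from MT-TF to MT-CO3 it had 0.115 against 0.0696, in that from MT-CO3 to MT-ND6 it had 0.0986 against 0.0684, and in that from MT-CYB to MT-TP it had 0.153 against 0.113. The block of 30 bases adds little, since its minus strand had 2 reads. Stacks of a strand share their source, so the count of blocks is a description.

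Among the stacks of at least 100 reads, edits per read was highest in the gene-free plus-strand stack at chrM:16195-16409 with 0.300, from 57 edits in 190 reads. It was followed by the MT-CYB and MT-TT stack with 0.153, the stack over the start of MT-CYB with 0.125, the minus-strand stack at chrM:16195-16571 with 0.117 and the largest plus-strand stack with 0.115. The lowest was the minus-strand stack within MT-CO3 at chrM:9378-9477 with 0.0162, from 8 edits in 495 reads, while the plus-strand stack of nearly the same bases had 0.113. The next lowest was the stack antisense to MT-ND1 at chrM:4079-4206 with 0.0479. Both also had the lowest values of the field named uniqueness, 1.01 and 1.23 per read, against 8.16 to 38.5 in the other stacks of at least 100 reads. The sources used here do not define that field, and in stacks of a single read it never exceeded 2 per base of the read.

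Compared with other stacks of at least 1000 reads, the mitochondrial stacks had few edits per read. They ranged from 0.0624 in the MT-TA to MT-TY cluster to 0.153 in the MT-CYB and MT-TT stack, with a median of 0.0952. The median was 0.156 for miRNA precursor, 0.158 for nuclear tRNA and 0.158 for all 815 stacks. All 14 mitochondrial stacks were below that last median, and 13 were below the lower quartile of 0.129. Over all sizes and reads, the mitochondrial stacks had 0.0986 edits per read against 0.189 for the whole list. By group, this value was 0.162 for miRNA precursor, 0.175 for nuclear tRNA and 0.143 for nuclear rRNA stacks. It was 0.518 for the stacks outside all these groups.

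**Figure D4:**
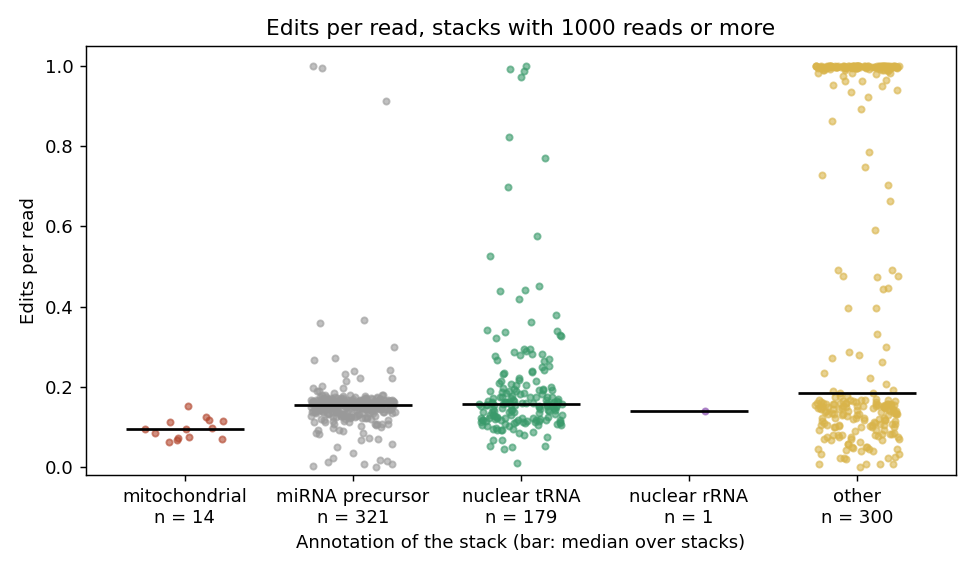
Edits per read of the 815 stacks of at least 1000 reads by annotation; each point is 1 stack, the horizontal bar is the median over stacks, and points are spread sideways for legibility. The 14 mitochondrial stacks sit between 0.0624 and 0.153, and the medians of the miRNA precursor and nuclear tRNA stacks are 0.156 and 0.158.

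The 38 mitochondrial stacks of fewer than 100 reads were short. Their widths ran from 19 to 158 bases with a median of 34.5, they had 1 to 98 reads with a median of 6, and 18 of them had no edit. Of these stacks 31 were on the minus strand with 230 reads, 27 of them opposite the rRNA genes alone, and 7 were on the plus strand with 223 reads, all in the control region. The remaining minus-strand ones were the stack opposite MT-ND2, the single read opposite MT-TF and a pair of 2-read stacks without a gene.

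Nuclear copies of mitochondrial genes can take reads of the originals in alignment. Of the genes named as such copies, 12 had a sense stack, 11 of the MTRNR2L genes derived from MT-RNR2 and MTND1P15, a copy of MT-ND1. They held 3428 sense reads in 35 stacks, so that chrM had 214 reads for each of theirs. Copies without such a gene name were not searched, so the ratio does not cover them. The largest was that of MTRNR2L1 at chr17:22023736-22023806 on the plus strand, with 2240 reads over 71 bases and 0.133 edits per read. A stack of MTRNR2L6 at chr7:142374961-142374980 had 232 reads and 1 edit per read. The sources used here do not say how reads that fit both a mitochondrial gene and a copy were placed.

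The 41 symbols of a list searched for mitochondrial RNA processing stand for 38 nuclear genes. MTERF1, TRMT10C and TBRG4 were also searched under the names MTERF, RG9MTD1 and FASTKD4. The list also holds genes of mitochondrial transcription and DNA replication, such as POLRMT and POLG. All 38 had a sense stack, with a median of 39.5 reads, against 76.8% of 20056 RefSeq protein-coding genes, whose median was 34 reads where a stack was found. The quartiles were 21 to 81.5 reads in the list and 11 to 79 over all genes, so its levels lay near those of other genes. DHX30, a helicase of mitochondrial ribosome assembly, had 19177 reads, of which 19043 lay in a single stack that is also annotated as a miRNA precursor. Next came POLG, the mitochondrial DNA polymerase, with 405 reads, of which 99 lay in 2 stacks annotated as a miRNA precursor. PTCD1 followed with 143 reads and TBRG4 with 135. ELAC2, which cuts the 3′ end of tRNAs, and POLRMT, the mitochondrial RNA polymerase, had 110 each.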

How the data were processed

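Small RNA was sequenced after capture of FLAG:AGO2 or FLAG:AGO3 from HEK293 T-Rex cells, 1 library each. The deposited stack list gives 1 row per stack and strand, with the count of reads, an entropy score and text fields for edits, uniqueness and genes. Libraries are pooled in it. Bowtie2 2.1.0 and hg19 are named without their role in the submitters' processing notes; not given in the sources used here are filters, mismatches, the placing of reads with several matches and the use of the random bases. The deposited score equals, in all 502547 stacks (tolerance 0.0015), the positional entropy plus the sequence entropy divided by 10 and scaled by reads/(reads + 10); 55347 of 55348 stacks of 2 reads match a relative entropy in bits (tolerance 0.00051). The authors' tables of raw counts per miRNA precursor served for mir-4485 (pseudocount 0.5, ratio of shares of precursor counts, count minimum 100).

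Depth was 6674064 reads for AGO2 and 4667236 for AGO3. Without replicates no test was made. Intervals are exact 95% and cover counting error only, since amplified reads carry no molecular identifier long enough to count molecules; a count of 0 allows up to 3 reads.

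Each stack went to 1 class in the order tRNA sense, rRNA sense, coding sense, antisense only, no gene. The text names the 20 stacks richest in reads, the 3 with the most reads of each class and, at 100 reads or more, the 5 highest in edits per read, the 5 highest and 5 lowest in entropy, and the 3 widest and narrowest; others were named after their values were seen. The members and lists were chosen with earlier results of these data known. Gene order came from RefSeq (GRCh38.p14), which matched 37 of 37 genes. Alternatives covered the split of reads over genes, read minimums, the largest stack left out, the denominator and weighting by reads. Tools were matplotlib 3.10.9, scipy 1.17.1, pandas 2.3.3 and numpy 2.4.6 under Python 3.11.15, and the stack parser was tested on simulated stacks.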

Additional observations from a re-analysis of the deposited data

How the results depend on the processing

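With 1 pooled list there is no replicate to leave out. The share of reads in stacks with a tRNA gene in sense was 88.0% as reported, 30.0% with reads split evenly over the genes of a stack, 0 in stacks with exactly 1 gene and 77.7% without the stack with the most reads. Without that stack, the mitochondrial share of all reads went from 1.07% to 0.579%, the plus-strand share from 59.1% to 24.1% and the antisense share from 0.963% to 1.79%. The mitochondrial share was 4.67% of reads outside miRNA precursors, and the antisense share 95.7% when any gene in antisense counted. The median width of 56 bases became 149 in stacks of at least 10 reads and 784 in those of at least 100, and the mean weighted by reads was 5305. The median positional entropy of 0.233 bits became 0.539, 1.46 and 2.43 in the same order, and the median of 0.0804 edits per read became 0.113, 0.0952 and 0.0986. The class and strand shares moved little under minimums of 10 or 100 reads. The log2 ratio of mir-4485, for which alternatives were chosen after seeing the data, was −0.77 as reported, −0.45 with shares of all library reads, −0.86 with the median of ratios and −0.77 without a pseudocount. No paired analysis was possible because there is 1 library per group. Stacks of few reads limit what can be said of the antisense of the rRNA genes, and the 0 antisense reads of MT-TV allow up to 3.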
